A study of Gallus gallus with 6 samples.

Results

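The genes described are those of the cell cycle and of DNA replication, measured by RNA sequencing in ileum from Taiping chickens, all male and 2 months old. The ileum is the end segment of the small bowel. The supplemented group (MP) comprised 3 libraries from birds on the basal diet whose water held a probiotic at 2 mL in each litre. The control group (CT) comprised 3 libraries from birds on the corn and soybean basal diet alone. The strains in the probiotic are not given in the sources used here. The question is which of these genes had other levels in supplemented birds than in control birds.

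Members were the genes with a symbol that the table's own KEGG annotation places in "Cell cycle" or "DNA replication" and whose FPKM (fragments per length of transcript and depth of sequencing) was at least 1 in MP or CT. The rule gave 128 of the 17623 genes in the table. Of these, 99 were annotated to the cell cycle alone, 23 to DNA replication alone and 6 to both. The pathways held 136 rows at any level, of which 4 had no symbol and another 4 lay below the minimum. Just inside the minimum were the cytokine gene TGFB2, with FPKM 1.26 in MP and 1.55 in CT, and the cyclin gene CCNE2, with 1.14 in MP and 1.78 in CT. Just outside was CCNA1, a second A-type cyclin gene, with 0.780 in MP and 0.660 in CT. All 128 members reached the minimum in both groups.

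A dividing cell licenses its replication origins in G1 by loading the MCM helicase, fires them in S phase, and separates the copied chromosomes in mitosis. Cyclin-dependent kinases (CDKs) drive entry into S phase and into mitosis, and CDK inhibitors, the RB protein and damage checkpoints restrain this progress. In the intestine most dividing cells of the epithelium lie in the crypts, and lymphocytes of the mucosa divide too. Many proteins of the KEGG pathways also act outside division, among them the 14-3-3 adaptors, the SMAD proteins and the acetyltransferases.

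Per library, the deposited mean counts came to 15928865 in MP and 17150865 in CT. Only 1 value per gene and group was available, the authors' mean of 3 libraries, so no standard deviation, replicate check or p-value can be given. Differences are MP minus CT on the log2(FPKM + 1) scale, on which genes with low values differ by less than their ratio. Beside them stands the ratio of counts scaled to depth, with its exact 95% interval (Clopper-Pearson), which holds counting error and leaves out how birds vary. In a whole piece of tissue, fewer cells of a type and less RNA per cell cannot be told apart. The enterocyte genes FABP6, FABP2, ANPEP and VIL1 were measured well above the minimum, as was the crypt gene OLFM4.

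Cell cycle and replication genes were lower in the MP mean more often than other genes, by small amounts. Of the 128 members 95 were lower in MP, or 74.2%, against 62.2% of all 12828 genes at the same minimum, and 33 were higher, or 25.8%, against 37.7% of all genes. The median difference was -0.14 for the members and -0.07 for all genes. With median-of-ratios scaling, which sets the typical gene to no difference, 81 members (63.3%) were lower, against 49.9% of all genes. Lower by at least 0.32 on that scale, a ratio of 5 to 4 in FPKM + 1, were 19 members (14.8%), against 11.2% of all genes, and higher by at least 0.32 were 8 (6.25%), against 8.49%. With median-of-ratios scaling 12 members (9.38%) were lower, against 7.28% of all genes, and 8 (6.25%) were higher, against 12.1%. Past 1.5-fold on the log2(FPKM + 1) scale there were 0 members on the lower side, where all genes had 1.97%, and 2 on the higher side, where all genes had 2.87%. With a pseudocount of 0.1 in place of 1, the low-level genes DNA2, CCNE2 and TTK passed on the lower side (2.34% of members, against 4.12% of all genes). The shares past these thresholds lay close to the background, so by them the collection as a whole did not stand far from other genes. The counting interval lay below a ratio of 1 for 77 of the 128 members, a larger share than the 43.3% of all genes. It lay above 1 for 18 of the 128, a smaller share than the 23.7% of all genes.

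The differences were unevenly spread over the roles. The 33 genes of mitosis had a median of -0.21 and the 39 genes of replication -0.16. The 19 genes of shared signalling and turnover had -0.15, close to the median of replication. The 24 genes of G1 control had -0.10, and the 8 genes of the DNA damage checkpoint -0.06. The 5 CDK inhibitor genes had a median of 0.33. Of the 19 members lower by at least 0.32, 10 were genes of mitosis (30.3% of that class) and 5 of replication (12.8% of that class). The share of all genes was 11.2%, so replication lay near the background. No test of the difference between these classes is possible with 1 mean per group.

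**Figure D1:**
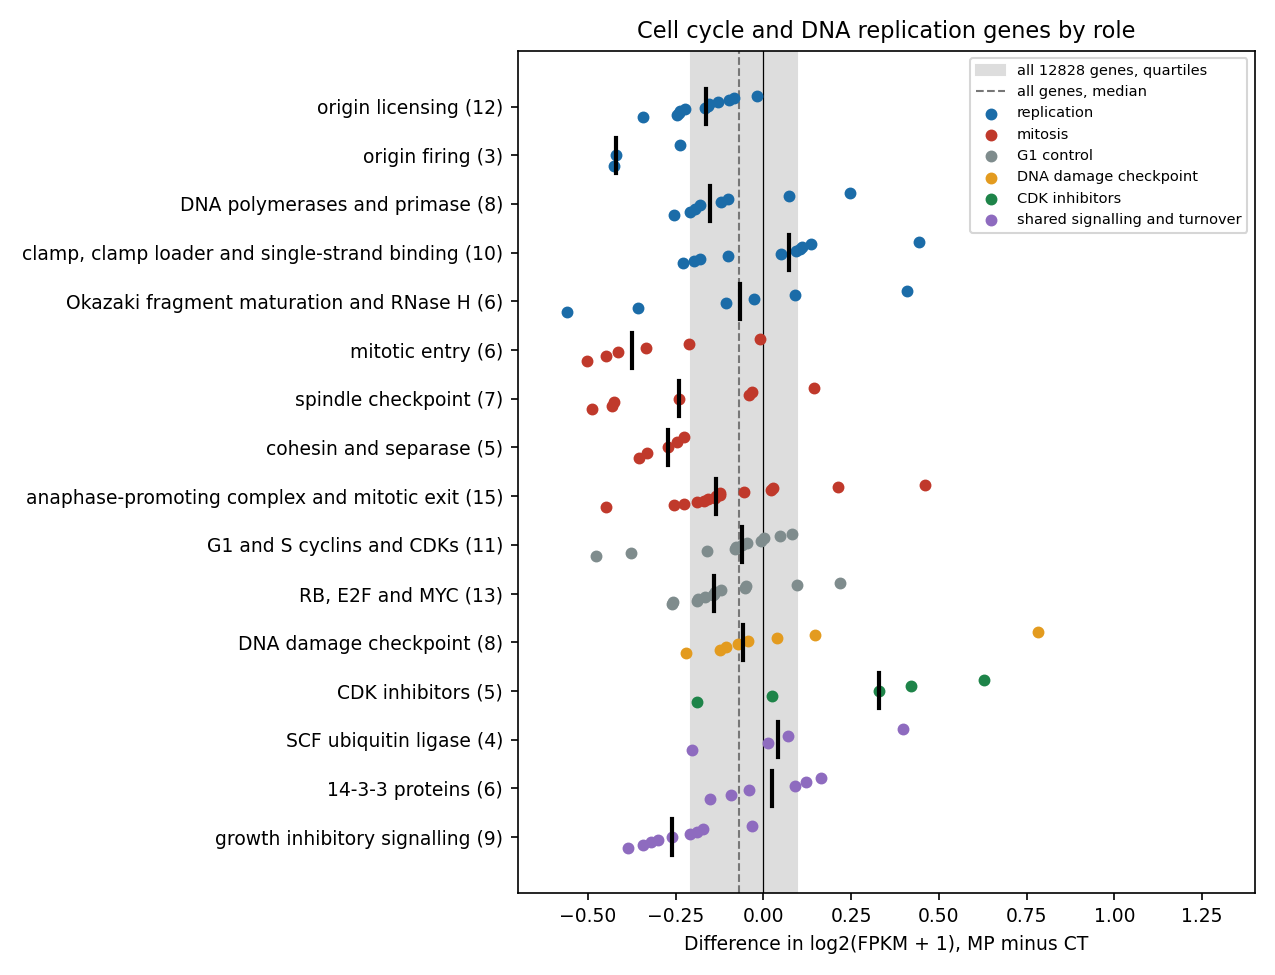
Difference in log2(FPKM + 1), MP minus CT, of each of the 128 genes (points), by role, with the number of genes in brackets. Black bars are medians, the grey band spans the quartiles of all 12828 genes and the dashed line is their median of -0.07. Origin firing, mitotic entry, cohesin, the spindle checkpoint and growth inhibitory signalling have medians to the left of the band, and the CDK inhibitors one to the right, at 0.33.

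Origin licensing genes were lower throughout. All 12 lay below CT (62.2% of all genes did), with a median of -0.16. With median-of-ratios scaling 11 did so, against 49.9% of all genes. Against genes of similar transcript length (described below) 10 of the 12 were lower, with a median of -0.09. The 5 measured subunits of the MCM2-7 helicase lay within a narrow range, between -0.24 and -0.10. Of these 5 genes 4 were in the long class of transcripts, where the median of all genes was -0.12. Against genes of similar length the median of the 5 was -0.05. MCM3 had FPKM 11.3 in MP and 13.5 in CT, a count ratio of 0.863 (0.808 to 0.922). MCM5 had 17.7 in MP and 19.9 in CT, and MCM2 had 12.4 in MP and 13.3 in CT. The helicase subunits lay at similar levels in each group, between 11.3 and 17.7 in MP and between 13.3 and 19.9 in CT. Among the 6 genes of the origin recognition complex, which marks origins, ORC5 lay lowest, with FPKM 4.50 in MP and 5.98 in CT (-0.34), and ORC4 had 8.04 in MP and 9.57 in CT. CDC6, which loads the helicase and was named after its values were seen, had only 2.05 in MP and 2.61 in CT.

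Origin firing had 3 members, all lower (62.2% of all genes were), with the lowest median of any role, -0.42. CDC45 (ENSGALG00000001616), which activates the loaded helicase, had FPKM 4.66 in MP and 6.57 in CT, a count ratio of 0.716 (0.646 to 0.794). The kinase gene CDC7, named after its values were seen, had 2.16 in MP and 3.24 in CT, a ratio of 0.671 (0.572 to 0.785). DBF4, the regulatory subunit of that kinase, had 6.21 in MP and 7.50 in CT (-0.24). These genes were expressed at lower levels than the helicase subunits in both groups.

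At the replication fork the picture was mixed. Of 8 genes for DNA polymerases and primase 6 were lower (75%, against 62.2% of all genes), with a median of -0.15. Among the lower genes were POLD2, at FPKM 25.1 in MP and 29.2 in CT, and the catalytic subunit POLA1, at 5.49 in MP and 6.43 in CT. The small polymerase epsilon subunit POLE4 went the other way, with 7.91 in MP and 6.52 in CT, and its counting interval of 0.944 to 1.49 included equality. A row described as DNA primase subunit 1, left out because it has no symbol, had 33.6 in MP and 31.6 in CT. Its ratio was 1.06 (1.003 to 1.12). Of 10 genes for the clamp, its loader and single-strand binding, 4 were lower (40%, against 62.2% of all genes), and the median was 0.07. PCNA (ENSGALG00000029292), the sliding clamp and the most abundant of the replication genes, had FPKM 66.9 in MP and 76.8 in CT, a ratio of 0.870 (0.837 to 0.904). Within the clamp loader, replication factor C, 2 of 5 subunit genes were lower, with differences from -0.23 to 0.11. SSBP1, which binds single-stranded DNA in mitochondria, was higher, with 61.2 in MP and 44.7 in CT and a ratio of 1.35 (1.26 to 1.44).

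The genes that finish Okazaki fragments, the short pieces of the lagging strand, and remove RNA differed widely among themselves. LIG1, the ligase that joins the fragments, had FPKM 3.87 in MP and 5.23 in CT, a ratio of 0.740 (0.660 to 0.828). DNA2, a nuclease and helicase named after its values were seen, had 1.64 in MP and 2.90 in CT. Its difference of -0.56 was the lowest of all members. The flap nuclease gene FEN1 had 11.6 in MP and 12.5 in CT. RNASEH2A, the catalytic subunit of RNase H2, had 10.95 in MP and 8.003 in CT, a ratio of 1.38 (1.24 to 1.53). The median of the 6 genes was -0.07, and 0.01 with median-of-ratios scaling.

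Genes of mitotic entry were lower, with 6 of 6 below CT (62.2% of all genes were) and a median of -0.37. CDK1 (ENSGALG00000003085), the kinase that starts mitosis, had FPKM 43.7 in MP and 58.6 in CT, a ratio of 0.753 (0.715 to 0.792). Its cyclin partner gene CCNB2 had 26.0 in MP and 33.1 in CT (-0.33). WEE1 (ENSGALG00000005769), which holds CDK1 inactive until the cell is ready, had 8.26 in MP and 12.1 in CT, a ratio of 0.683 (0.637 to 0.733). PLK1, a kinase of spindle assembly, had 9.37 in MP and 13.2 in CT, a ratio of 0.711 (0.663 to 0.763). CDK1 and its brake WEE1 were both lower. CDC25B, a phosphatase gene that removes the brake, named after its values were seen, lay level, at 50.5 in MP and 50.8 in CT. With median-of-ratios scaling 5 of the 6 were lower, against 49.9% of all genes.

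The spindle checkpoint, which delays anaphase until chromosomes are attached, had genes that were lower, genes that were level and 1 that was higher. BUB1 had FPKM 5.01 in MP and 7.11 in CT, a ratio of 0.707 (0.654 to 0.764), and BUB1B had 6.95 in MP and 9.67 in CT, a ratio of 0.727 (0.676 to 0.782). TTK, a checkpoint kinase named after its values were seen, lay at -0.49, with 2.99 in MP and 4.59 in CT. MAD2L1 had 6.01 in MP and 7.27 in CT (-0.24). BUB3, the most abundant gene of this role, had 40.1 in MP and 41.3 in CT, and its difference of -0.04 turned to 0.03 with median-of-ratios scaling. MAD1L1 was the one higher, with 10.4 in MP and 9.28 in CT and a ratio of 1.12 (1.04 to 1.202). In all 6 of 7 genes were lower (85.7%, against 62.2% of all genes). With median-of-ratios scaling 4 of 7 were, where 49.9% of all genes were, so this count lay near the background.

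The 5 genes of cohesin, the ring that holds sister chromatids together, and of its release lay between -0.35 and -0.23. All 5 stayed below CT under each of the scalings tried, where 49.9% to 70.0% of all genes did. RAD21, the subunit that is cleaved at anaphase, had FPKM 38.6 in MP and 49.6 in CT, a ratio of 0.781 (0.757 to 0.806). ESPL1, the protease separase that cuts it, had 4.82 in MP and 6.33 in CT (-0.33). STAG2 and SMC3 lay at -0.27 and -0.25. A cohesin row described as structural maintenance of chromosomes 1A, left out because it has no symbol, had 2.88 in MP and 4.27 in CT. Another cohesin row left out for the same reason, described as stromal antigen 1, lay near the median of all genes, at -0.06. Its ratio was 0.949, and the interval of 0.866 to 1.04 included equality.

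The anaphase-promoting complex, the ubiquitin ligase that ends mitosis, was led by its activator. CDC20 had FPKM 12.4 in MP and 17.2 in CT, a ratio of 0.721 (0.664 to 0.782), while the other activator gene, FZR1, which acts in late mitosis and G1, had 35.6 in MP and 39.2 in CT (-0.14). Of 11 core subunit genes 7 were lower (63.6%, near the 62.2% of all genes), with a median of -0.12. The core thus lay nearer to the median of all genes than CDC20 did. The small subunit gene CDC26 was higher, at 14.1 in MP and 9.93 in CT, with a ratio of 1.41 (1.28 to 1.57). ANAPC10 had 5.86 in MP and 7.19 in CT, and its interval of 0.747 to 1.02 included equality.

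**Figure D2:**
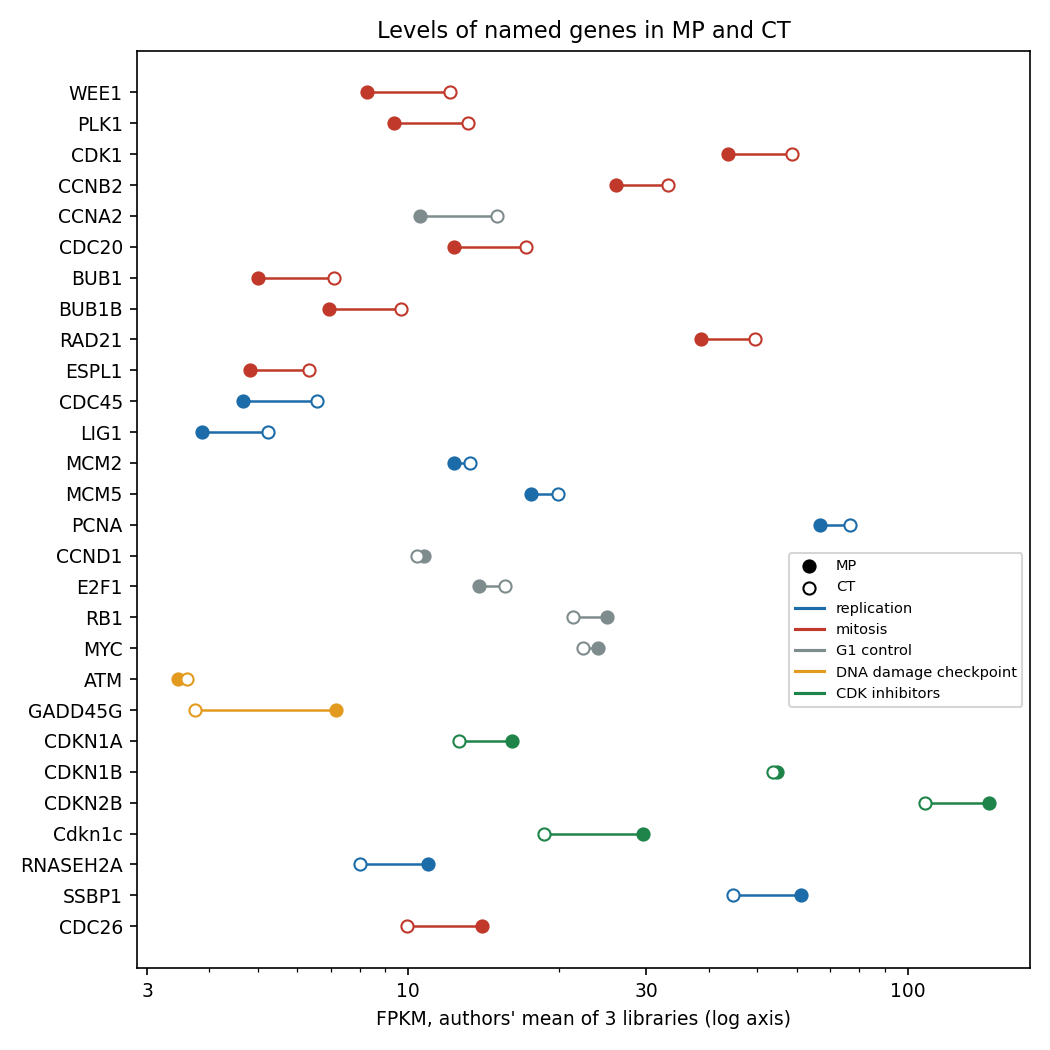
FPKM on a log axis of 28 named genes in MP (filled circles) and CT (open circles), each the authors' mean of 3 libraries with no error available; colours mark the class. The plotted genes of mitosis other than CDC26 lie to the left in MP, such as CDK1 at 43.7 in MP and 58.6 in CT. The plotted CDK inhibitors lie to the right or level. The 28 are a choice from the named genes: of all 33 genes of mitosis 5 were higher, among them MAD1L1, which is not plotted. The lower inhibitor gene CDKN2C is not plotted either.

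In G1 control, the cyclin genes CCNA2 and CCNE2 were lower and the D-type cyclin genes lay near 0. CCNA2 (ENSGALG00000011881), the cyclin of S phase and G2, had FPKM 10.5 in MP and 15.1 in CT, a ratio of 0.703 (0.648 to 0.763). CCNE2, a cyclin of S phase entry, lay at -0.38, while its relative CCNE1, named after its values were seen, was nearly level, with 7.87 in MP and 8.16 in CT (-0.05). The D-type cyclin genes CCND1, CCND2 and CCND3, which carry growth signals to the cycle, lay between -0.08 and 0.05. CCND1 had 10.8 in MP and 10.4 in CT, and its sign turned with equal FPKM totals (-0.01). The kinase gene CDK6 had 9.12 in MP and 8.56 in CT, but on the log2(CPM + 1) scale it was lower in MP (-0.029). The median of the 11 cyclin and CDK genes was -0.06, and 0.01 with median-of-ratios scaling.

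Of 13 genes of RB, E2F and MYC 11 were lower (84.6%, against 62.2% of all genes), with a median of -0.14. The largest differences were those of TFDP2 and ABL1, both at -0.26, and the most abundant gene, HDAC2, lay at -0.14. The 4 measured E2F genes, transcription factors of S phase genes, lay between -0.19 and -0.05, and E2F1 had FPKM 13.9 in MP and 15.7 in CT. RB1 (ENSGALG00000016997), which restrains E2F, was higher, with 25.02 in MP and 21.4 in CT and a ratio of 1.18 (1.13 to 1.23). Its relative RBL2 was lower, at 14.3 in MP and 16.5 in CT. The growth regulator gene MYC was slightly higher, at 24.0 in MP and 22.4 in CT (0.10), with a ratio of 1.06 (1.003 to 1.12).

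CDK inhibitors were the class with the highest median. Cdkn1c, an assembled locus described as cyclin-dependent kinase inhibitor 1C (the p57 protein), had FPKM 29.5 in MP and 18.7 in CT, a ratio of 1.54 (1.45 to 1.64). CDKN2B (ENSGALG00000026137), an inhibitor of the G1 kinases, had 146 in MP and 109 in CT, a ratio of 1.32 (1.29 to 1.36). CDKN1A (ENSGALG00000028318), the p21 inhibitor that p53 induces, had 16.1 in MP and 12.6 in CT, a ratio of 1.28 (1.18 to 1.39). CDKN1B, the p27 inhibitor, was level, at 54.7 in MP and 53.8 in CT, and its sign turned with equal FPKM totals (-0.03). CDKN2C, named after its values were seen, was the member that lay lower, with 2.81 in MP and 3.34 in CT, and its interval of 0.610 to 1.18 included equality. The description of that row names another gene, cyclin dependent kinase inhibitor 2D. Without the assembled locus the median of the class was 0.18.

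Ratios between genes of the same group do not depend on the scaling of that group. The CDKN1A level was 0.369 of the CDK1 level in MP and 0.215 in CT. For Cdkn1c against CDK1 the ratio was 0.675 in MP and 0.320 in CT. CCNB2 against CDK1 stayed closer, at 0.595 in MP and 0.564 in CT, and WEE1 against CDK1 was 0.189 in MP and 0.207 in CT. The pairs were chosen after the values were seen.

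The DNA damage checkpoint was mixed and close to the background. The kinase genes ATM and ATR, which sense breaks and stalled forks, lay at -0.04 and -0.11. ATM had FPKM 3.46 in MP and 3.60 in CT, with an interval of 0.902 to 1.03. MDM2, the ligase that degrades p53, had 16.2 in MP and 19.0 in CT (-0.22). The stress-induced GADD45 genes differed: GADD45G (ENSGALG00000028005) had 7.16 in MP and 3.74 in CT, a ratio of 1.84 (1.56 to 2.18), which was the highest of all members. GADD45B had 29.7 in MP and 26.7 in CT, and GADD45A had 27.9 in MP and 30.5 in CT. Of the 8 genes 5 were lower (62.5%, against 62.2% of all genes). With median-of-ratios scaling 4 were (50%, against 49.9% of all genes), and their median was 0.01.

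Members with wider roles in signalling and protein turnover also went in both directions. All 9 genes listed as growth inhibitory signalling lay below CT (62.2% of all genes did), with a median of -0.26. Median-of-ratios scaling left 8 of 9 there, against 49.9% of all genes. Of the 9 genes 6 were in the long class of transcripts, and against genes of similar length their median was -0.15. The 9 genes included TGFB1, a growth-inhibiting cytokine, at FPKM 46.1 in MP and 57.8 in CT. The acetyltransferase genes EP300 and CREBBP had 25.3 in MP and 33.4 in CT, and 18.9 in MP and 23.5 in CT. GSK3B, a kinase of Wnt signalling, had 31.1 in MP and 39.7 in CT, though the description of its row names glycogen synthase kinase 3 alpha. The list name fits TGFB1 and the SMAD genes, while the acetyltransferases are general coactivators of transcription. Among the 6 genes of 14-3-3 proteins was the most abundant member, YWHAQ, at 313 in MP and 294 in CT, and the least abundant of them, YWHAH, had 63.1 in MP and 56.3 in CT. They lay between -0.15 and 0.16, and their median of 0.03 turned to -0.03 with equal FPKM totals. In the SCF ubiquitin ligase, which degrades cell cycle inhibitors, the RING subunit gene RBX1 had 110.4 in MP and 83.7 in CT, a ratio of 1.32 (1.247 to 1.39), while the scaffold gene CUL1 had 31.6 in MP and 36.5 in CT and the substrate receptor gene SKP2 had 8.29 in MP and 7.84 in CT.

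Transcript length moved with these differences. The count per FPKM follows transcript length, and over 10 equal bins of all genes the median difference ran from 0.12 in the bin with the lowest value to -0.15 in the bin with the highest. Members were often long, with 53 in the long, 36 in the medium and 39 in the short of 3 equal classes of all genes. In the long class 86.8% of members were lower, against 76.1% of all genes there. In the medium class the shares were 77.8% of members and 63.8% of all genes, and in the short class 53.8% of members and 46.8% of all genes. Of the 8 members higher by at least 0.32, 7 were in the short class, among them SSBP1, RBX1, CDC26 and GADD45G, and CDKN2B was in the medium class. In the short class these were 17.9% of members, close to the 16.2% of all genes there.

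Set against the median of all genes in the same length bin, the members' median was -0.05, with 82 of 128 below (all genes 50.0%). The median of all genes of mitosis went from -0.21 to -0.09 and that of replication from -0.16 to -0.04. By role, mitotic entry went from -0.37 to -0.33, origin firing from -0.42 to -0.33 and the spindle checkpoint from -0.24 to -0.22. Cohesin went from -0.27 to -0.18, growth inhibitory signalling from -0.26 to -0.15 and origin licensing from -0.16 to -0.09. The anaphase-promoting complex went from -0.14 to -0.06. The CDK inhibitors were at 0.35. In the short class 11 of 13 genes of mitosis were lower, with a median of -0.21, whereas 4 of 12 genes of replication were, with a median of 0.09. Why long and short genes differed between the groups was not tested.

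**Figure D3:**
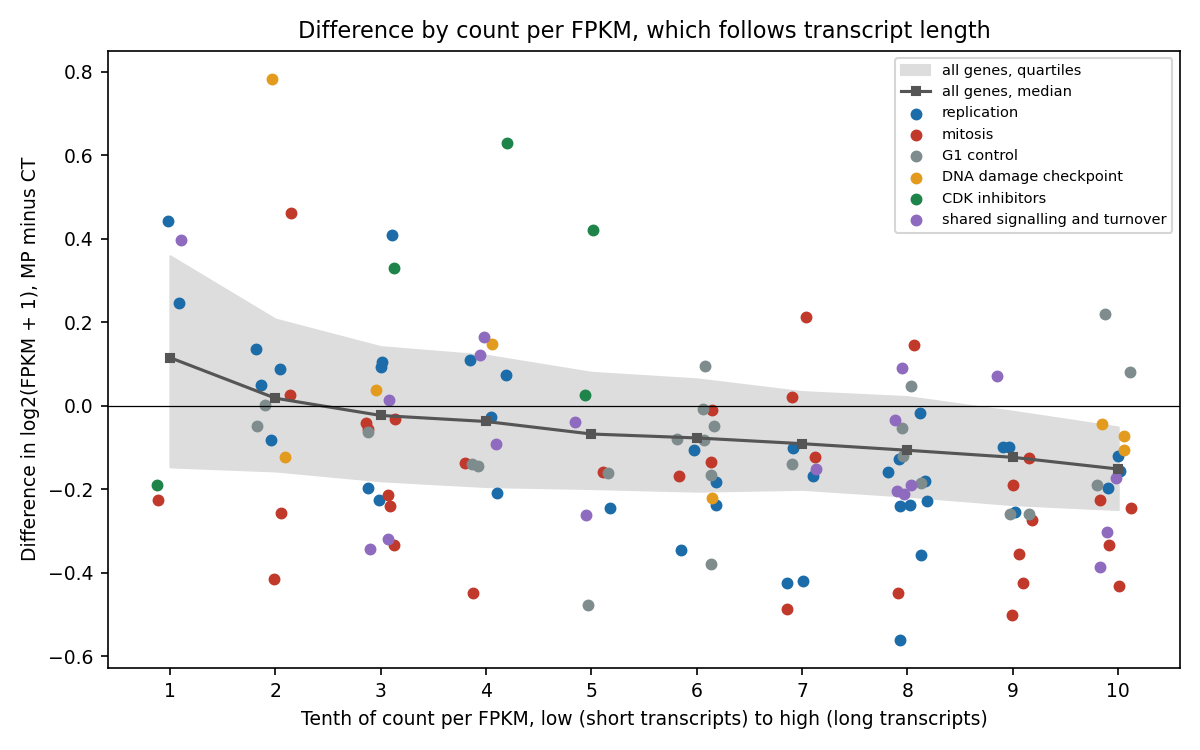
Difference in log2(FPKM + 1), MP minus CT, of the 128 genes (points, shifted sideways at random within each bin) by 10 bins of count per FPKM over all genes. The grey band and line are the quartiles and median of all genes, which run from 0.12 in the bin of the shortest transcripts to -0.15 in that of the longest; 27 of the 33 genes of mitosis lie below the median of their bin.

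Proliferation genes outside both pathways gave a more even picture. Of a list of 34 such genes 27 were measured, and 26 of them were lower (96.3%, against 62.2% of all genes), with a median of -0.36. Relative to genes of similar length 26 were lower, with a median of -0.28. The 21 genes of mitosis and chromosome structure were all lower, between -0.61 and -0.15. TOP2A, which untangles DNA, had FPKM 14.5 in MP and 21.1 in CT, and the condensin gene SMC2 had 13.4 in MP and 20.9 in CT, a ratio of 0.642 (0.611 to 0.673). The kinesin gene KIF11 and the spindle gene TPX2 lay at -0.50 and -0.47. Of 6 genes of S phase and nucleotide supply 5 were lower. RRM2, the small subunit of the enzyme that makes deoxynucleotides, lay lowest of the whole list, with 14.3 in MP and 24.2 in CT and a ratio of 0.591 (0.553 to 0.632). The large subunit gene RRM1 had 10.4 in MP and 13.5 in CT. TK1, which salvages thymidine, was slightly higher, at 40.5 in MP and 38.5 in CT, with a ratio of 1.06 (1.01 to 1.10). This list was drawn up with earlier results on cell cycle genes of these libraries known, so it is no independent evidence of direction.

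Replication genes that the KEGG pathways leave out were lower for 6 of 7 (85.7%, against 62.2% of all genes), with a median of -0.15. Relative to genes of similar length 6 were lower, with a median of -0.08. The licensing factor gene CDT1 had FPKM 11.3 in MP and 13.0 in CT, and its inhibitor gene GMNN had 7.80 in MP and 8.35 in CT. The genes of the GINS complex, which joins the active helicase, ran from -0.34 for GINS2 to 0.06 for GINS4. GINS4 had 54.0 in MP and 51.9 in CT.

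Levels of cell type markers also differed between the group means. For comparison, 62.2% of all genes were lower in MP, with a median of -0.07. All 13 measured markers of T and natural killer cells were lower in MP (median -0.27), and their summed FPKM was 611 in MP and 732 in CT. All 10 smooth muscle markers were lower (median -0.38, sums of 2639 in MP and 3829 in CT), as were all 11 of fibroblasts and matrix (-0.54, sums of 1259 in MP and 1768 in CT) and all 8 of endothelium (-0.30, sums of 105 in MP and 131 in CT). Of 11 crypt stem cell markers 9 were lower (median -0.16, sums of 529 in MP and 605 in CT). Of 12 enterocyte markers 5 were lower and 7 higher (median 0.08, sums of 10188 in MP and 10803 in CT). FABP6, picked out after its values were seen, differed by more than this sum did, with 2669 in MP and 4081 in CT. Among 12 markers of B and plasma cells 8 were lower (66.7%, near the share of all genes), with a median of -0.09 and sums of 1508 in MP and 885 in CT. The gene JCHAIN, for the joining chain of antibodies and picked out after its values were seen, held most of that sum, with 1298 in MP and 687 in CT, and without it the sums were 210.2 in MP and 198 in CT. Of 4 red cell markers 2 were lower (0.36, sums of 159.7 in MP and 116 in CT). Relative to the length bin the medians were -0.18 for T and natural killer cells, -0.29 for smooth muscle and -0.43 for fibroblasts and matrix. They were -0.18 for endothelium, -0.09 for crypt stem cells, 0.19 for enterocytes and 0.36 for red cells. For B and plasma cells 6 of 12 were lower on that measure, with a median of -0.002. ASCL2, a crypt marker, EPB42 and HBZ, red cell markers, and further rows for CD8A fell below the minimum, while the main CD8A row did not. The part of these cell types in the differences of the cell cycle genes was not tested.

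**Figure D4:**
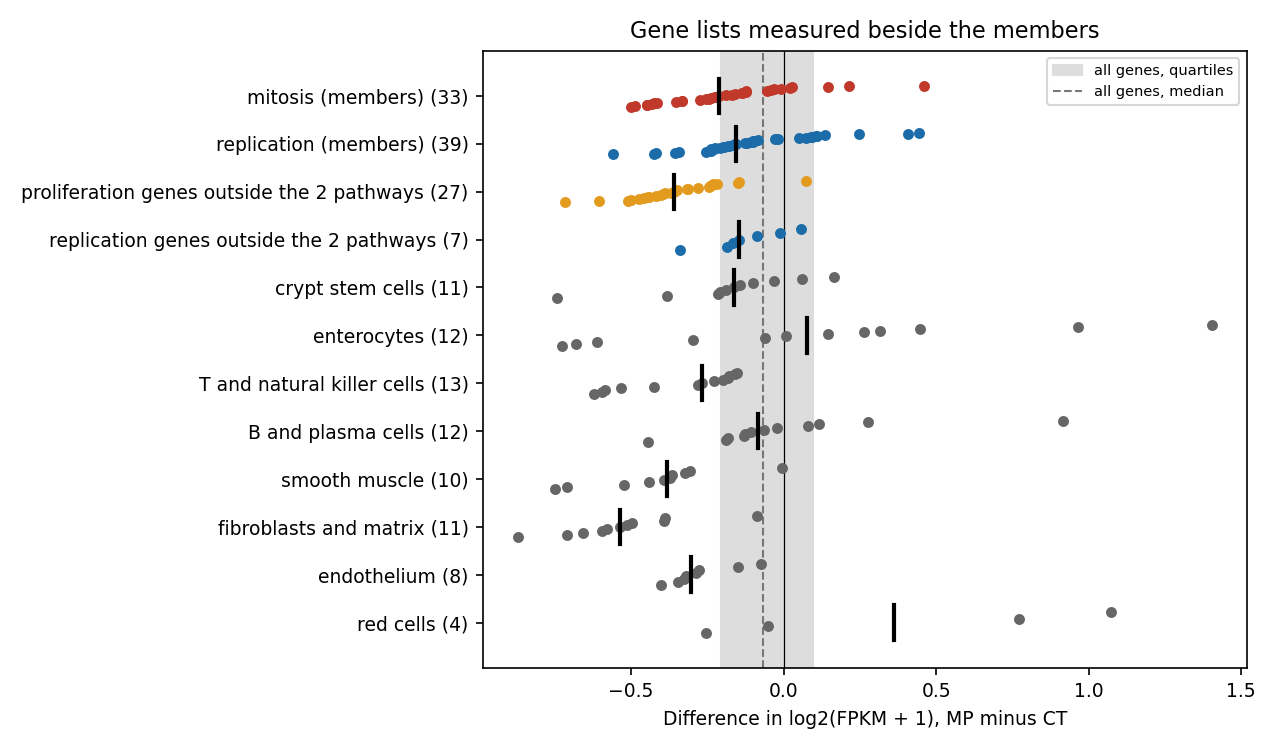
Difference in log2(FPKM + 1), MP minus CT, of genes of mitosis and replication, of proliferation and replication genes outside both pathways and of cell type markers (points), with the number measured in brackets. Black bars are medians and the grey band spans the quartiles of all genes; the proliferation list (median -0.36) lies further left than the mitosis members (-0.21), near smooth muscle (-0.38).

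Members with no other annotation lay lowest. The 26 members that the table places in no other pathway had a median of -0.23, with 23 lower. The 67 with 2 to 4 pathway names had -0.12 and the 35 with 5 or more had -0.12. Of 17 members that also belong to p53 signalling 10 were lower (median -0.05), and of 16 in TGF-beta signalling 12 were (-0.18). Of 29 members of DNA replication 19 were lower (65.5%), against 82 of 105 in the cell cycle (78.1%) and 62.2% of all genes.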

How the data were processed

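RNA was sequenced from 6 ileum libraries, 3 of MP and 3 of CT. Per the submitters' processing notes, the tools were HISAT2 and Bowtie2, StringTie 1.3.1, DESeq2 and fastp 0.18.0, with no role or order given; no build is named there. The labels describe a small RNA library kit, although the values cover messenger RNA genes of all lengths. The authors deposited, per the file headers, FPKM values and estimated counts per gene, as 1 mean per group. Another 4 columns of values belong to no sample of this series and were not used.

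The count test first named in the design could not be run on group means, so differences of log2(FPKM + 1) and depth-scaled count ratios were computed. Ratios used counts multiplied by 3, rounded to whole numbers and divided by the depth ratio of 0.929, with exact Clopper-Pearson intervals; reads from PCR are not independent molecules. Of the 128 members 13 had counts that were not whole after this (within 0.01), so those counts were estimates; paralogs and overlapping genes may share reads. The computations used Python 3.11.15, pandas 2.3.3 and scipy 1.17.1, and the interval was tested on simulated counts.

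The rule for naming took, from each of 16 role lists, up to 4 genes with the largest difference at FPKM of at least 5 and the most abundant. It added a fixed set of regulators and members higher by at least 0.32. Not all of the 72 genes it gave are described above. Further genes were picked with their values known. Members and lists were chosen with earlier results of these data known. The RefSeq table of GRCg7b, used for names only, held 124 of the 126 NCBI gene numbers that members carry. Alternatives covered the pseudocount, the minimum FPKM, scaling, assembled loci, each pathway alone and transcript length. The planned description of promoter motifs was not made, since no sequences were used here.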

Additional observations from a re-analysis of the deposited data

How the results depend on the processing

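No paired analysis was possible because the table used gives 1 mean per group and no values for the numbered libraries; leaving out libraries, a replicate block, edgeR and DESeq2 were therefore not run. Of 180 recomputed values for all members and for the classes 163 kept within the error set for them (the binomial interval of a share, or the typical counting error of 0.10 for a median). This 0.10 is the error of a single gene, larger than the gap between the medians of members (-0.14) and all genes (-0.07). Members' medians of -0.06 with median-of-ratios scaling and -0.04 in the short class therefore counted as kept. Binomial intervals of small classes are wide, so the 163 are no measure of stability. The share of members lower in MP was 63.3% with median-of-ratios scaling, 65.5% in the DNA replication pathway alone, 53.8% in the short and 86.8% in the long class of count per FPKM, and 64.1% relative to the length bin. Lower by at least 0.32 were 6.90% in the DNA replication pathway alone and 7.81% relative to the length bin (8.0% of all genes). Higher by at least 0.32 were 17.9% in the short class (16.2% of all genes there) and 0% in the long class (2.74% of all genes there). At least 1.5-fold higher were 0% in the DNA replication pathway alone (2.87% of all genes) and in the medium and long classes (2.08% and 0.795% of all genes there).

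Relative to the length bin, medians were -0.044 for replication and -0.094 for mitosis, and that of the DNA damage checkpoint changed sign to 0.071. The CDK inhibitors had a median of 0.177 without assembled loci and 0% lower at FPKM of at least 5, where CDKN2C drops out. Single genes near 0 changed sign: ATM (0.107) and MCM2 (0.025) relative to the length bin, BUB3 (0.034) with median-of-ratios scaling, CDK6 (-0.029) with CPM, and CDKN1B (-0.034) and SKP1 (-0.045) with equal FPKM totals. Fewer genes enter in the length classes, the single pathways and at the higher minimum. For the other settings the cause was not tested. The comparison with the length bin was chosen after seeing the data. Of the members 1 had under 100 counts in a group. The typical counting error of a gene, 0.10, was still not small beside the members' median difference of -0.14. Variation between birds could not be measured from group means.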
